A study of Mus musculus with 12 samples.

Results

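The comparison described here is the difference between genotypes in the transcriptional response to heat shock. For each gene it is the response of KO fibroblasts (heat shock minus control) minus the response of WT fibroblasts, on the log2 scale, so that a negative value marks a smaller rise or a larger fall in KO. All 12 libraries entered it, 3 in each of 4 groups of C57BL/6 mouse embryonic fibroblasts: wild type (WT) cells left at 37 °C, WT cells held for 20 min at 42 °C, TG2-/- (KO) cells left at 37 °C and KO cells held for 20 min at 42 °C. Of 45808 genes in the deposited table, 14201 were tested because their value reached 10 in at least 3 libraries, 10699 others had a read but missed that filter, and 20908 had no read. The third-highest value was 10.1 in the lowest gene kept and 9.99 in the highest gene left out. Among the genes tested, 11918 reached the minimum in at least 3 libraries of each genotype, 1229 only in WT, 967 only in KO and 87 only across the genotypes. The values are reads divided by 1 size factor per library and are called signal.

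The 2 genotypes are separate fibroblast populations, grown from embryos until they became immortal spontaneously, so the deletion and the history of each population cannot be told apart. Nothing says that the 3 libraries per group were grown as separate cultures, and p-values then measure only the spread between these libraries, which may be technical. The libraries held 15319300 to 27668395 reads in genes, and 1 read was worth 0.699 to 1.38 units of signal. Of 11 fibroblast markers 9 were tested, with a summed signal of 137000 to 314900 per library. The 3 T cell markers did not exceed 1.40, and the macrophage markers summed to 4324 to 5796 in WT libraries and to 1414 to 1813 in KO libraries. The 5 muscle markers summed to 7.26 to 18.5 in WT libraries and to 193 to 246 in KO libraries. Many of these markers were not tested: 3 of 7 were for macrophages, 1 of 5 for muscle and none for T cells. Of the tested markers of the 7 other cell types, none reached an unadjusted p of 0.05 for the genotype difference. Among the fibroblast markers 1 did. Tgm2, which encodes TG2, gave a signal of 1606 to 2049 in the WT libraries and of 526 to 1189 in the KO libraries, with no overlap. Its response differed by -0.64 between genotypes (-1.22 to -0.06, adjusted p = 0.243). The table counts the whole gene and does not show which exons the remaining reads came from.

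Heat shock unfolds proteins, which frees the transcription factor HSF1 from its chaperones. HSF1 then binds heat shock elements, inverted repeats of GAA, and drives chaperone genes such as those of the Hsp70 family. Heat also activates stress kinases, which within minutes induce immediate early genes such as Jun and Fos without new protein synthesis, while transcription of many other genes is held back. TG2 is a calcium-dependent crosslinking enzyme that has been linked to HSF1 activation, and the design asks whether cells without it respond to heat in the same way.

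The promoters of 4 genes are shown because the results below turn on these genes and their windows hold a match to a motif searched: the chaperone Hspa1b, the immediate early genes Jun and Dusp1, and the hypoxia gene Bnip3. Each sequence is the stretch before the start site, 5′ to 3′, taken from RefSeq on GRCm38.p6. They lie at chr17:34959239-34959488 (minus strand) for Hspa1b, chr4:95052223-95052472 (minus strand) for Jun, chr17:26508473-26508722 (minus strand) for Dusp1 and chr7:138909520-138909756 (minus strand) for Bnip3. The Bnip3 stretch shows 237 of the 250 bases and leaves out those next to the start site. Capitals mark the heat shock element GAANNTTC in Hspa1b and, as the first of 2 capital stretches, in Jun, the variant cAMP response element TGACATCA as the second stretch in Jun, the cAMP response element TGACGTCA in Dusp1, and the hypoxia response element core ACGTG, which overlaps its own reverse complement in Bnip3.
Hspa1b: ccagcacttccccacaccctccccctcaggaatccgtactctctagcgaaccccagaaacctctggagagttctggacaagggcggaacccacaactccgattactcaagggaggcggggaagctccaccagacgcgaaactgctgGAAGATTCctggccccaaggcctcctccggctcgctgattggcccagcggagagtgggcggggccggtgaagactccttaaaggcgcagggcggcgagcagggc
Jun: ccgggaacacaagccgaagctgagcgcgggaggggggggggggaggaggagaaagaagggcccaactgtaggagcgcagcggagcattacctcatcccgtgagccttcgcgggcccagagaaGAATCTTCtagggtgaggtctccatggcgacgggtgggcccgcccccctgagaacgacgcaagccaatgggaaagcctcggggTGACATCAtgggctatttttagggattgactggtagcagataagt
Dusp1: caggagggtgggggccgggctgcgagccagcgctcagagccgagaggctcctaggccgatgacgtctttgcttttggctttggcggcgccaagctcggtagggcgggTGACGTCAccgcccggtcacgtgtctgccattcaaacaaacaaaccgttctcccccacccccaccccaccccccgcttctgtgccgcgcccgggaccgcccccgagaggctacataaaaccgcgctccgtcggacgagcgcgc
Bnip3: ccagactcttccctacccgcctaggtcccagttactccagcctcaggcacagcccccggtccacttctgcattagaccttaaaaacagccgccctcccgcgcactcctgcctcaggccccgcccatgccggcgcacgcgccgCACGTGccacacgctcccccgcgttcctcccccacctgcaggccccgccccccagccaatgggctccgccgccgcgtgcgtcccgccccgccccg
Both strands were searched in the 250 bases before each of 32851 RefSeq start sites. GAANNTTC was found in 6.69% of these windows, the other arrangement of the heat shock element, TTCNNGAA, in 7.17%, TGACATCA (or TGATGTCA) in 2.93%, TGACGTCA in 1.55% and ACGTG (or CACGT) in 16.6%. Not every member of these groups had such letters: neither heat shock element form (GAANNTTC or TTCNNGAA) was found in the windows of Dnajb1 and Bag3, neither these nor the 2 cAMP response element forms in those of Fos, Junb and Atf3, and no ACGTG in those of Pdk1. Nor was ACGTG particular to hypoxia genes. The Dusp1 window also held 2 matches, left in lower case here, and the windows of Hsph1 and Lef1 held up to 2. The windows of Hspa1a and Hspa1b differed at 3 of 250 bases. A match describes the letters only and is not evidence of binding.

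No gene passed limma at an adjusted p of 0.05 and a fold of 1.5 for the genotype difference, which is 0% of the 14201 genes, and the smallest adjusted p was 0.0767. At an unadjusted p of 0.05 or less, 1428 genes (10.1%) had a higher response in KO and 1104 (7.77%) a lower one. The count tests on the recovered reads called few genes at the same thresholds. edgeR called 10 of 14201 genes (0.0704%), 6 higher and 4 lower, and DESeq2 called 35 of the 7593 genes to which it gave an adjusted p (0.461%), 28 higher and 7 lower. Leaving out 1 library in limma gave 126 calls without WT control 1, 68 without heat-shocked WT replicate 1, 13 without KO control 3, 8 without heat-shocked WT replicate 3, 1 without KO control 1 and none without any of the other 7. An adjusted p with no tool named is that of limma, a range in parentheses after a difference is its 95% interval, and a gene is said to be called by a tool only where it met both thresholds.

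Within each genotype the same thresholds called 523 genes in WT (3.68%; 236 up and 287 down) and 126 in KO (0.887%; 82 up and 44 down). The 236 genes up in WT had a median response of 1.14 in WT and 0.42 in KO on the log2 scale, and 215 of them had the smaller size of response in KO. The 287 genes down in WT had medians of -0.75 in WT and -0.21 in KO, with 277 smaller in KO. Seen from the other side, the 82 genes up in KO had a median of 1.29 in KO and 0.82 in WT, and the 44 genes down in KO had -1.06 in KO and -0.47 in WT. Genes chosen on one genotype's estimate tend to look smaller in the other, so these medians describe the lists and are not tests. Over the 11918 genes measured in both genotypes the responses had an SD of 0.32 in WT and 0.23 in KO, and correlated across genes with a Pearson r of 0.549 (Spearman 0.466). Of these genes, 4.07% differed between genotypes by the fold of 1.5 or more.

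**Figure D1:**
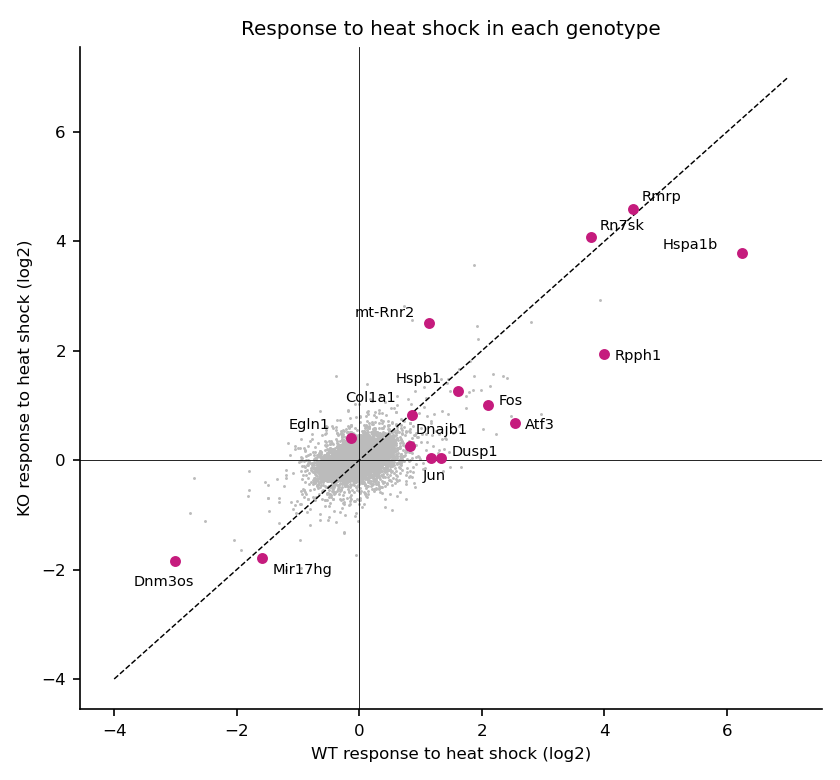
Response to heat shock in WT (x axis) and KO (y axis), each as a log2 difference of group means, for the 11918 genes measured in both genotypes (grey points), with 15 named genes in colour. The dashed line marks equal responses; Hspa1b (6.24 in WT, 3.79 in KO), Rpph1 and Jun lie below it, and mt-Rnr2 (1.14 and 2.51) and Dnm3os above it.

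Among the 37 HSF1 target chaperones tested, the inducible Hsp70 genes Hspa1a and Hspa1b had the largest differences. Hspa1b, which encodes an Hsp70 chaperone made on heat shock, had a signal of 48.7, 62.8 and 36.3 in the WT control libraries and of 4376, 5677 and 2061 after heat shock. The KO controls had 2.12, 9.99 and 4.52, rising after heat shock to 70.1, 66.4 and 103. Heat shock libraries lay above their controls in both genotypes, but every heat-shocked KO library stayed far below every heat-shocked WT library. The means rose 81.9-fold in WT and 14.4-fold in KO, a log2 difference of -2.46 (-3.70 to -1.21, adjusted p = 0.112). DESeq2 called it (adjusted p = 0.0201) and edgeR did not (adjusted p = 0.261). On the scale of the signal itself the mean rose by 3989 units in WT and by 74.1 in KO.

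Its near-identical neighbour Hspa1a counted 0, 2 and 0 reads in the WT control libraries and 213, 304 and 66 after heat shock. The KO libraries counted 0, 0 and 0 reads in controls and 5, 3 and 11 after heat shock. Hspa1a met the filter through the heat-shocked WT libraries, as its signal in heat-shocked KO was 5.65, 3.11 and 11.5. A gene tested for this reason tends to show the larger response in WT. The log2 difference of -4.30 (adjusted p = 0.0767; edgeR adjusted p = 0.976) depends on the pseudocount because both control groups are at or near 0, and reads shared by the 2 genes could have been assigned to either. Dnajb1, the Hsp40 partner that delivers clients to Hsp70, had 1417, 1416 and 1352 in WT controls and 2831, 2778 and 1919 after heat shock. In KO its signal was 2354, 2198 and 2196 in controls and 2666, 2550 and 2848 after heat shock. Its KO controls lay above its WT controls, and the heat-shocked groups overlapped. The difference in response was -0.57 (-0.90 to -0.23, adjusted p = 0.135). DESeq2 called it (adjusted p = 0.00852) and edgeR did not (adjusted p = 0.0602).

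Other HSF1 targets differed less between genotypes. Hspb1, a small heat shock protein, rose in WT (1900, 1671 and 1534 to 5852, 6346 and 3796) and in KO (528, 533 and 503 to 1130, 1133 and 1530). Its difference of -0.36 had an interval of -0.84 to 0.13 and was -0.06 after the GC and length correction described below. Bag3, a co-chaperone that couples Hsp70 to autophagy, had a response of 0.59 in WT and 0.51 in KO and a difference of -0.08 (-0.33 to 0.18). Hspa8, the constitutive Hsp70, differed by 0.02 (-0.24 to 0.29), Hsp90aa1 by -0.05 (-0.27 to 0.17) and Hsph1, an Hsp110 that recharges Hsp70, by -0.13 (-0.33 to 0.07). Hsf1 itself had a response of 0.31 in WT and 0.02 in KO, a difference of -0.28 (-0.51 to -0.06, adjusted p = 0.200). Hspe1, the lid of the mitochondrial Hsp60 chamber, differed by -0.26 (adjusted p = 0.122) and Fkbp4, an Hsp90 co-chaperone, by -0.30 (adjusted p = 0.162).

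Of the 37 HSF1 target chaperones tested, 6 were called up in WT and 3 in KO, beside 236 and 82 of all 14201 genes. None was called for the difference in limma, as for all genes. Their median response was 0.21 in WT and 0.08 in KO, and the median difference was -0.10 beside 0.01 over all genes tested. At an unadjusted p of 0.05, 9 of 37 had a lower response in KO and 1 a higher one, Hspd1 (0.30), the Hsp60 subunit, where 7.77% and 10.1% of all genes did. Leaving out any 1 library kept the median between -0.12 and -0.08.

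**Figure D2:**
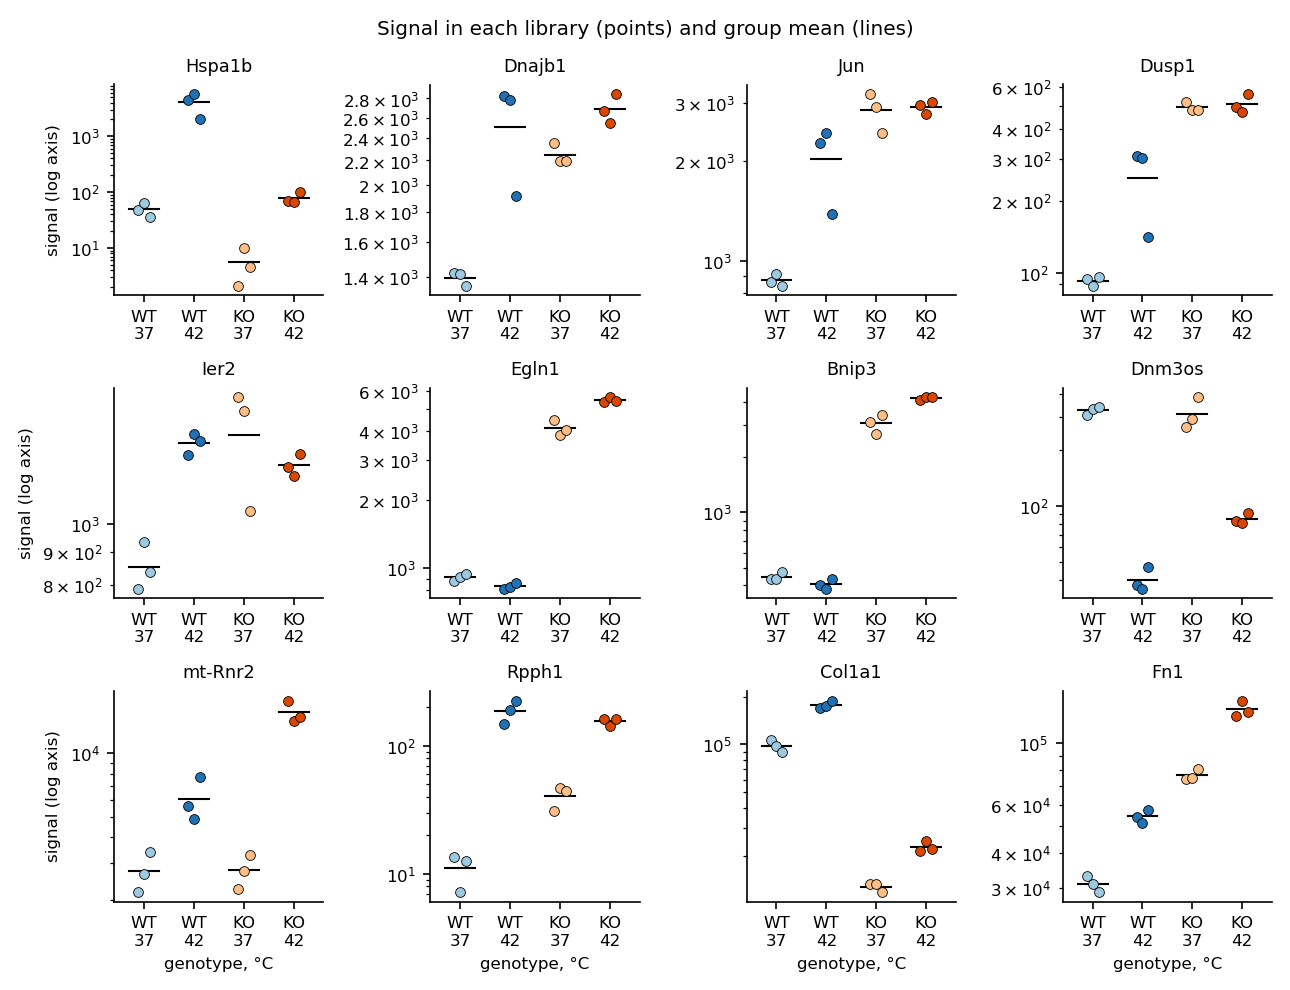
Signal of 12 genes in each library (points, log axis) with the group mean (lines), by genotype and temperature in °C. Jun and Dusp1 rise in WT and sit at 2426 to 3188 and 473 to 562 in all 6 KO libraries, while the heat-shocked KO libraries of Egln1 (5374 to 5622) and Bnip3 (4070 to 4226) lie above their KO controls.

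Of the 28 lists, the immediate early genes (-0.27) and the replication-dependent histone genes (-0.26) had the lowest median differences. Their ranges overlapped when 1 library was left out, and after the GC and length correction the histones were lower (-0.29 beside -0.19). Only 12 of 71 histone genes were tested, with 2 lower and 1 higher in KO at an unadjusted p of 0.05 (7.77% and 10.1% of all genes). Jun, a subunit of the AP-1 transcription factor, had a signal of 864, 911 and 841 in WT controls and of 2269, 2438 and 1380 after heat shock. The KO libraries had 3188, 2919 and 2426 without and 2965, 2777 and 3024 with heat shock. All KO control libraries thus lay above all WT controls and in or above the range of heat-shocked WT, and the KO groups overlapped each other. The means rose 2.33-fold in WT and stood at 1.03-fold in KO, a log2 difference of -1.13 (-1.61 to -0.65, adjusted p = 0.0974) that was called by edgeR (adjusted p = 0.0153) and by DESeq2 (adjusted p = 0.00549).

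Dusp1, a phosphatase that switches off stress-activated MAP kinases, had 94.4, 88.8 and 96.4 in WT controls and 308, 303 and 142 after heat shock. In KO it had 519, 484 and 484 in controls and 495, 473 and 562 after heat shock, with overlap. The KO control mean was 5.32 times the WT control mean. The difference in response was -1.30 (-1.95 to -0.65, adjusted p = 0.112; edgeR adjusted p = 0.0188). Ier2, an immediate early nuclear protein, had 788, 935 and 837 in WT controls, 1285, 1385 and 1352 after heat shock, 1584, 1506 and 1047 in KO controls and 1231, 1190 and 1289 after heat shock. The WT groups did not overlap and the KO groups did, with a difference of -0.79 (-1.15 to -0.43, adjusted p = 0.111; edgeR adjusted p = 0.0277; DESeq2 adjusted p = 5.75e-04).

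Not every early gene started high in KO. Junb, another AP-1 subunit, had 3999, 4751 and 3717 in WT controls and 6446, 9403 and 6444 after heat shock. In KO it had 3830, 3075 and 2570 in controls and 3255, 3040 and 3118 after heat shock, so the KO libraries stayed at or below the WT control range with 1 value inside it. Its difference was -0.81 (-1.26 to -0.36, adjusted p = 0.122; DESeq2 adjusted p = 0.0465). Atf3, a stress-induced repressor of the ATF family, had 55.0, 49.8 and 50.3 in WT controls and 420, 459 and 146 after heat shock, beside 19.1, 23.3 and 21.5 in KO controls and 40.7, 39.4 and 26.2 after heat shock. The difference was -1.85 (-2.85 to -0.85, adjusted p = 0.12).

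For Fos, the partner of Jun in AP-1, the order of the genotypes depended on the scale. Its signal was 20.7, 39.7 and 31.4 in WT controls, 154, 151 and 95.1 in heat-shocked WT, 156, 165 and 99.5 in KO controls and 293, 223 and 321 in heat-shocked KO. As a ratio the means rose 4.36-fold in WT and stood 1.99-fold higher in KO (log2 difference -1.09, adjusted p = 0.177), but in units of signal the increase was 103 in WT and 139 in KO. Egr1, a zinc finger immediate early factor, had a log2 response of 1.18 in WT and 0.46 in KO (difference -0.73, adjusted p = 0.143), with increases of 959 and 729 units. Jun, by contrast, gained 1157 units in WT and 77.5 in KO.

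Of the 33 AP-1 and other immediate early transcription factors tested, 8 were called up in WT and 1 in KO, Egr2. Over all 14201 genes these counts were 236 and 82. The median difference was -0.27, with a median response of 0.19 in WT and 0.05 in KO. At an unadjusted p of 0.05, 14 of 33 had a lower response in KO and 2 a higher one (7.77% and 10.1% of all genes), and leaving out any 1 library gave 12 to 15 and 0 to 3. edgeR called 2 of the 33 genes and DESeq2 3, beside 10 and 35 over all genes. Fosl1, an AP-1 member, had a difference of -0.52 (adjusted p = 0.112; DESeq2 adjusted p = 0.00444). Myc differed by -0.01 (-0.21 to 0.19). Of 18 MAP kinase phosphatases and feedback inhibitors, 6 had a lower response in KO and 1 a higher one by the same rule, with a median of -0.04. Cyr61, a matrix-associated target of SRF and Yap, differed by -0.56 (adjusted p = 0.173).

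Heat-shocked WT replicate 3 had the lowest heat-shocked WT signal for Hspa1b, Hspb1, Dnajb1, Jun, Fos, Atf3 and Dusp1. Without it the differences were -1.38 for Jun (adjusted p = 8.69e-04), -1.67 for Dusp1 (adjusted p = 2.57e-04), -0.75 for Dnajb1 (adjusted p = 0.00248) and -2.38 for Atf3 (adjusted p = 0.00434), all 4 past both thresholds in limma. Leaving out a low heat-shocked WT library raises the WT mean by construction, so these values show what that library decides and are no further support. Under all alternatives run the differences ranged from -1.38 to -0.97 for Jun, -1.67 to -1.11 for Dusp1, -0.75 to -0.47 for Dnajb1 and -2.40 to -1.55 for Atf3, with limma or count-test adjusted p-values up to 0.277, 0.277, 0.306 and 0.283. That library was also the shallowest, with 15319300 reads, and the part of depth in these values was not tested.

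The list of hypoxia and glycolysis genes had the highest median difference before the GC and length correction, after which that of the 5 structural noncoding RNAs was higher (0.48 beside 0.26). The mitochondrial genome transcripts (0.17) ranged from -0.03 to 0.36 when 1 library was left out. The hypoxia genes are targets of HIF, which binds ACGTG, and encode glycolytic enzymes, glucose carriers and regulators of mitochondria. Egln1, the prolyl hydroxylase that marks HIF for destruction, had a signal of 883, 914 and 944 in WT controls and of 813, 832 and 861 after heat shock. In KO it had 4468, 3845 and 4048 in controls and 5374, 5622 and 5394 after heat shock. Its KO heat shock libraries lay above all KO controls and its WT heat shock libraries below all WT controls, and the KO control mean was 4.51 times that of WT. The difference of 0.54 (0.36 to 0.71) had the smallest p of all genes in limma (adjusted p = 0.0767), and its adjusted p was 0.0173 in edgeR and 8.92e-05 in DESeq2, although its size is below the fold of 1.5.

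Bnip3, which targets mitochondria for autophagy, had 434, 432 and 472 in WT controls and 403, 383 and 431 after heat shock. KO cells gave 3103, 2683 and 3387 without heat shock but 4070, 4226 and 4226 with it, and these did not overlap. The genotype difference was 0.59 (0.36 to 0.83, adjusted p = 0.0805). DESeq2 called it (adjusted p = 0.00148), and edgeR gave 0.58, just under the fold (adjusted p = 0.0421). The differences of the next 4 genes stayed below the fold. Pdk1, the kinase that shuts pyruvate out of mitochondria, differed by 0.49 (adjusted p = 0.108; DESeq2 adjusted p = 0.00564), Ndrg1 by 0.41 (adjusted p = 0.112; DESeq2 adjusted p = 0.00809), the glycolytic enzyme Pgk1 by 0.34 (adjusted p = 0.119; DESeq2 adjusted p = 0.0101) and the glucose carrier Slc2a1 by 0.37 (adjusted p = 0.173). P4ha2, a collagen prolyl hydroxylase, was the only list member called up in KO (0.68, beside 0.38 in WT). Car9, a carbonic anhydrase, had 6 reads in the WT control libraries together and 0 after heat shock, so its difference rests on few WT reads. In KO it had 138, 103 and 96.1 in controls and 142, 194 and 151 after heat shock.

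Of the 23 hypoxia and glycolysis genes, 20 had a positive difference and 11 were higher in KO at an unadjusted p of 0.05, with none lower (10.1% and 7.77% of all genes). The median difference was 0.20, from a median response of 0.09 in WT and 0.34 in KO. Leaving out any 1 library kept the median between 0.17 and 0.24 and the count of higher genes between 7 and 13. Vegfa, the angiogenic growth factor and a defining HIF target, differed by -0.12 (-0.33 to 0.10).

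**Figure D3:**
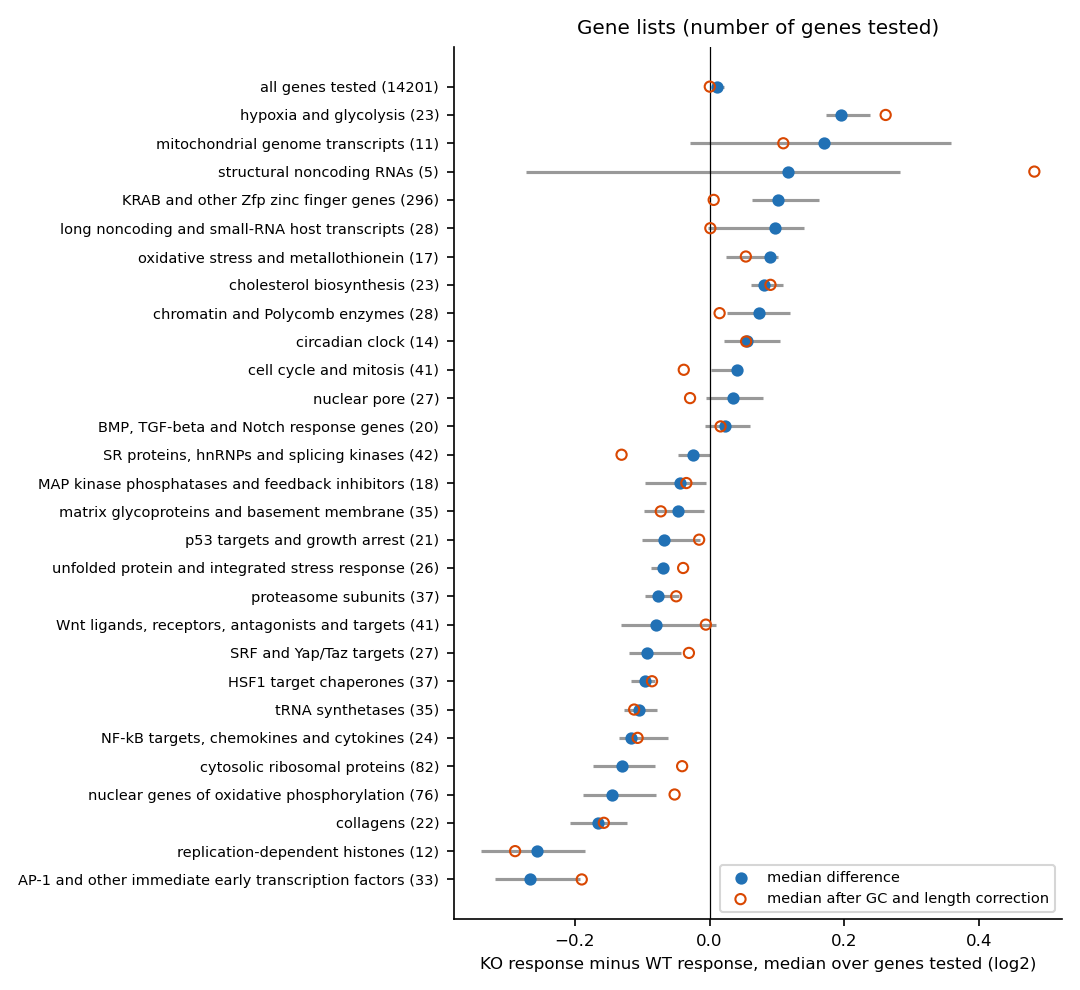
Median KO response minus WT response (x axis, log2) for 28 gene lists and for all genes tested, with the number tested in parentheses. Filled points are medians, grey lines their range when 1 library is left out, and open circles medians after GC and length correction; hypoxia and glycolysis (0.20) is highest and the immediate early factors (-0.27) lowest before correction, while structural noncoding RNAs (0.48) and histones (-0.29) are the extremes after it.

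Of 5 structural noncoding RNAs tested, 4 were called up in each genotype, beside 236 of all 14201 genes in WT and 82 in KO. For the difference edgeR called 1 of them, Rpph1, beside 10 of all genes. Rpph1, the RNA of the tRNA-processing enzyme RNase P, had 13.5, 7.22 and 12.6 in WT controls and 149, 191 and 226 after heat shock. KO cells gave 30.8, 46.6 and 44.1 without heat shock but 163, 143 and 162 with it. The heat-shocked groups overlapped and the controls did not, and the rise was 17-fold in WT and 3.85-fold in KO (log2 difference -2.06, -2.76 to -1.35, adjusted p = 0.0767; edgeR adjusted p = 0.0153). Rn7sk, the RNA that sequesters the elongation factor P-TEFb, rose in both genotypes, by 3.79 in WT and 4.09 in KO, with a difference of 0.30 (-0.47 to 1.07). Rmrp, the RNA of the related RNase MRP, rose by 4.47 and 4.59, with a difference of 0.12 (-0.70 to 0.93). The libraries were made from poly(A)-selected RNA and these RNAs carry no poly(A) tail, so their counts are the part that was captured.

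Mitochondrial ribosomal RNA differed in the opposite direction. mt-Rnr2, the large-subunit RNA, had 2184, 2655 and 3388 in WT controls, 5590, 4878 and 7752 after heat shock, 2270, 2765 and 3287 in KO controls and 17843, 14306 and 14891 after heat shock. The control groups overlapped, and every heat-shocked KO library exceeded every other library. The rise was 2.22-fold in WT and 5.65-fold in KO, a difference of 1.37 (0.83 to 1.91, adjusted p = 0.0805; edgeR adjusted p = 0.0153; DESeq2 adjusted p = 0.00722). mt-Rnr1, the small-subunit RNA, had a difference of 0.65 (adjusted p = 0.191). These were the 2 of 11 mitochondrial genome transcripts tested that had a higher response in KO at an unadjusted p of 0.05. None had a lower one, where 10.1% of all genes were higher and 7.77% lower.

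Among the transcripts that fell, Dnm3os, the host of a microRNA cluster on chromosome 1, had 309, 330 and 340 in WT controls and 37.5, 35.9 and 46.8 after heat shock. In KO it had 265, 291 and 382 in controls and 82.5, 80.9 and 92.1 after heat shock. It fell in every library of both genotypes, and the heat-shocked KO libraries lay above the heat-shocked WT libraries (difference 1.15, 0.71 to 1.59, adjusted p = 0.0767; edgeR adjusted p = 0.0440). Mir17hg, the host of another microRNA cluster, fell by 1.59 and 1.78, with a difference of -0.20 (-0.72 to 0.32). Il3ra was one of 2 genes called in opposite directions in the genotypes, the other being a predicted gene. It rested on 4 reads in the KO control libraries and 0 in the heat-shocked KO libraries.

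Most other genes with small adjusted p-values in the count tests had a higher response in KO. Npepps, a cytosolic aminopeptidase, had 2949, 3203 and 3274 in WT controls and 2604, 2396 and 2050 after heat shock, and in KO 2974, 3089 and 3318 in controls and 3536, 3582 and 3482 after heat shock. Heat-shocked libraries lay below all controls in WT and above all controls in KO, and the difference was 0.60 (0.37 to 0.83, adjusted p = 0.0767). DESeq2 called it (adjusted p = 1.63e-04), and edgeR gave 0.58, under the fold (adjusted p = 0.0273). Rhoq, a small GTPase of glucose carrier traffic, differed by 0.59 (edgeR 0.57, adjusted p = 0.0273). edgeR called Fam117b (limma difference 0.60, edgeR adjusted p = 0.0380), the phospholipid flippase Atp11b (0.62, 0.0440) and Arhgap29 (0.73, 0.0460). Prune2 had a difference of 0.83 (DESeq2 adjusted p = 0.00214). DESeq2 also called the DNA damage kinase Atr (0.79), the atypical cyclin Ccng2 (0.70), the mitochondrial adenylate kinase Ak4 (0.65) and the lipid droplet protein Plin4 (0.76), with adjusted p-values of 0.00564, 0.00966, 0.00570 and 0.0217. In the lower direction it called Romo1, a small mitochondrial inner membrane protein (-0.62, adjusted p = 0.00440). Romo1 was -0.33 after the GC and length correction described below (limma adjusted p = 0.105). The same correction left Npepps (0.52), Rhoq (0.49), Fam117b (0.47), Atp11b (0.38), Arhgap29 (0.52), Atr (0.54) and Ccng2 (0.52) below the fold. Prune2 (0.66), Ak4 (0.59) and Plin4 (0.77) stayed above it.

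Col1a1, Col1a2 and Fn1, 3 matrix genes, rose in both genotypes with differences near 0. Col1a1, the main fibrillar collagen chain, had 106900, 98150 and 90024 in WT controls and 168250, 175520 and 188740 after heat shock, beside 13254, 13185 and 11774 in KO controls and 21271, 24574 and 22019 after heat shock. The ratio of means was 1.80 in WT and 1.78 in KO although the KO level was about 0.130 of the WT level, and the difference was -0.03 (-0.27 to 0.22), which became 0.43 under quantile normalization. Among genes called in the same direction in both genotypes, the other 4 with the smallest differences were Col1a2 at 0.00 (-0.19 to 0.20), Fn1, encoding fibronectin, at -0.02 (-0.25 to 0.21), Yam1 at 0.03 (-0.40 to 0.45) and C3, the complement component, at 0.03 (-0.20 to 0.26). They were chosen for small differences, so only their intervals are read. Hspg2, the basement membrane proteoglycan perlecan, differed by -0.05 (-0.27 to 0.18). Over 22 collagens the median difference was nevertheless -0.17, with 8 lower and 1 higher in KO at an unadjusted p of 0.05 (7.77% and 10.1% of all genes).

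Wnt signalling, in which β-catenin carries the signal to the nucleus, showed small or imprecise differences. Ctnnb1, encoding β-catenin, had a response of -0.27 in WT and -0.03 in KO, a difference of 0.25 (0.09 to 0.41, adjusted p = 0.155; DESeq2 adjusted p = 0.0376). Axin2, a feedback target of the pathway, differed by -0.42 (-1.03 to 0.19), the nuclear partner Lef1 by -0.66 (-1.28 to -0.04, adjusted p = 0.254), the ligand Wnt10b by 0.58 (-0.27 to 1.43) and the Wnt antagonist Igfbp4 by 0.00 (-0.35 to 0.35). In the KO control and heat shock groups Wnt10b had 32 and 49 reads and Lef1 had 75 and 41. Of 41 genes of the Wnt list, 7 had a higher and 3 a lower response in KO at an unadjusted p of 0.05, where 10.1% and 7.77% of all genes did. The list median was -0.08, with 23 negative differences, and 6 were higher and 6 lower after the GC and length correction. In the unfolded protein and integrated stress response list of 26 genes, 5 were lower and 1 higher by the same rule, with a median of -0.07, and 3 were lower and none higher after the GC and length correction described below. There Hspa5, the Hsp70 of the endoplasmic reticulum, differed by 0.12 (-0.08 to 0.32), Atf4 by -0.22 (-0.39 to -0.06, adjusted p = 0.178) and Ddit3 by -0.01 (-0.24 to 0.21). The 16 canonical members of the lists that are not given with values had adjusted p-values of 0.164 or more.

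Several large lists also had medians away from 0. Of 76 nuclear genes of oxidative phosphorylation, 25 had a lower and 2 a higher response in KO at an unadjusted p of 0.05 (7.77% and 10.1% of all genes), with a median of -0.15 and 14 to 30 lower when 1 library was left out. Of 82 cytosolic ribosomal protein genes, 71 had a negative difference, with a median of -0.13. At an unadjusted p of 0.05, 10 of them were lower and none higher, and 3 to 27 were lower when 1 library was left out. Over all 14201 genes tested, 6831 differences were negative and 7370 positive. The median GC content was 50.2% in the oxidative phosphorylation list, 50.8% in the ribosomal list and 49.9% over all genes tested. Transcript length was not compared between these lists. Of 296 zinc finger genes, 190 had a positive difference, with a median of 0.10 and a median GC content of 44.8%. At an unadjusted p of 0.05, 30 of them were higher and 17 lower, beside 10.1% and 7.77% of all genes. Over the 11797 genes measured in both genotypes that have an annotated transcript, the difference fell with GC content (Spearman -0.483 across genes, which are not independent) and rose with transcript length (0.358). The WT response correlated with GC content at 0.559 and the KO response at 0.212. The median difference ran from 0.19 in the tenth of genes with the lowest GC content to -0.18 in the tenth with the highest. Replicates also differed along GC content within groups, with correlations of 0.700 and -0.700 for the deviations of WT controls 1 and 3 and of 0.591 and -0.557 for KO controls 1 and 3. The part of GC content and length in the difference was not tested beyond the following correction. That correction also removes any true response that follows GC content or length.

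**Figure D4:**
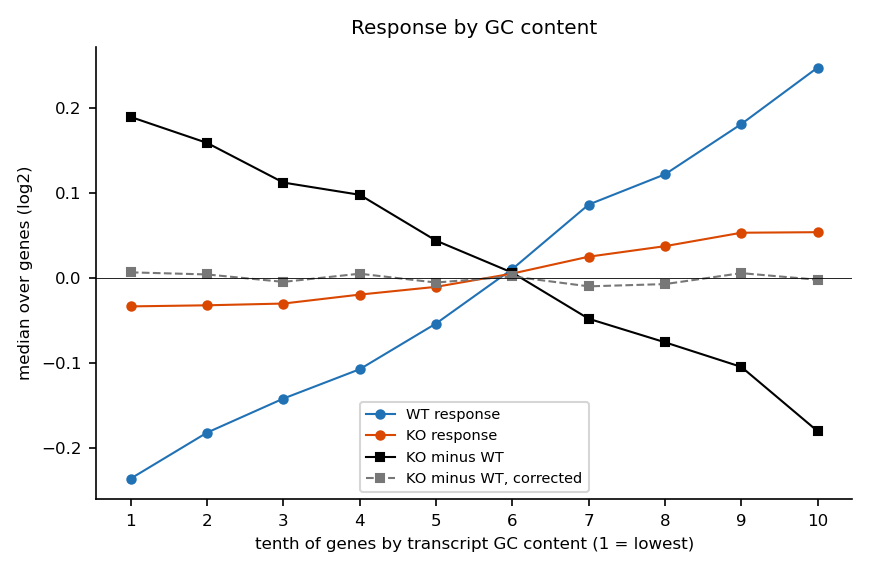
Median log2 response to heat shock in WT and KO, and their difference before and after correction, for 10 equal groups of genes ordered by transcript GC content. The WT line climbs from -0.24 to 0.25 and the KO line from -0.03 to 0.05, so the difference falls from 0.19 to -0.18. The corrected difference lies within 0.01 of 0 by construction, because the correction removes the trend with GC content. Its flat line is not a test.

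After a correction that removed a smooth trend with GC content and length from each library, added after seeing the data, 8.27% of 13995 genes were higher and 9% lower at an unadjusted p of 0.05, and 17 genes were called. The immediate early list then had 11 lower and 3 higher of 33 (14 and 2 before, median now -0.19) and the hypoxia list 14 higher and none lower of 23 (11 and none before, median now 0.26). The chaperones had 13 lower and 1 higher of 37 (9 and 1 before, median now -0.09). The oxidative phosphorylation list went from 25 to 13 lower (median -0.05), the ribosomal protein median to -0.04 and the zinc finger median to 0.01. The 42 SR proteins, hnRNPs and splicing kinases, with 4 lower before, had 17 lower after it (median -0.13). mt-Rnr2 (1.26, adjusted p = 0.0228) and Rpph1 (-1.68, adjusted p = 0.0441) were called after the correction. Egln1 was called (0.61, adjusted p = 0.0324), and Jun was not (-1.05, adjusted p = 0.0512). Bnip3 (0.51, below the fold), Pdk1 (0.35) and Ndrg1 (0.37) had smaller differences than before the correction. Pgk1 (0.38), Slc2a1 (0.42), P4ha2 (0.34) and Car9 (1.97) had larger ones, and Vegfa stayed at -0.12. The differences of Junb (-0.53) and Fosl1 (-0.33) became smaller in size.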

How the data were processed

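Poly(A) RNA of 12 libraries was sequenced with a stranded kit as paired reads. Per the labels and the study's methods, reads were trimmed with cutadapt 1.10, aligned with STAR 2.5.2, counted per gene with HTSeq-count and scaled with DESeq2; the notes name mm9 and the methods GRCm38, and whether counting used strand is not given in the sources used here. The deposited signal is reads divided by 1 size factor per library, by the authors; whole reads were recovered for 100% of values, within 0.01 read. The main test was limma 3.58.1 (trend, empirical Bayes; R 4.3.3) on log2(signal + 1) over 4 group means, with the interaction contrast and Benjamini-Hochberg adjustment; fold changes of low genes are understated. edgeR 4.0.16 (quasi-likelihood) and DESeq2 1.42.0 were run on the recovered reads, and the closing section gives the other alternatives. The pipeline was tested on simulated data. The members and lists were chosen with earlier results of these data known. Genes were named by these rules: Tgm2 and Hsf1; genes called in opposite directions in the genotypes; canonical list members; the 5 genes called in both genotypes with the smallest differences; and called genes by size. Since limma called none, named genes outside these rules (edgeR or DESeq2 calls, further members of the chaperone, early gene, hypoxia and noncoding lists) were chosen after their values were seen. Predicted genes (2077 of those tested) are counted, not named. Symbols were matched to GENCODE for transcript length and GC content (13995 of the tested genes). The correction removed a spline trend in each (4 degrees of freedom), fitted on genes with a mean signal of at least 50 in each genotype. Replicate numbers were not taken to pair libraries.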

Additional observations from a re-analysis of the deposited data

Results flagged for a closer look

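Among the named genes, 9 had a response that differed between WT and KO cells by edgeR's test of the difference itself, at an adjusted p of 0.05 and a fold of 1.5. In limma none of them passed. A higher response in KO was found for mt-Rnr2, the large mitochondrial ribosomal RNA (log2 difference 1.35, edgeR adjusted p = 0.0153), Dnm3os (1.16, 0.0440), Arhgap29 (0.73, 0.0460), Atp11b (0.60, 0.0440) and Fam117b (0.59, 0.0380). A lower response in KO was found for Rpph1, the RNase P RNA (-2.17, 0.0153), Dusp1 (-1.43, 0.0188), Jun (-1.20, 0.0153) and Ier2 (-0.82, 0.0277). For Rpph1, Jun, Dusp1 and Ier2 the KO control libraries lay above all WT control libraries. After the GC and length correction limma called only mt-Rnr2 and Rpph1 of these 9. It left Atp11b at 0.38, Fam117b at 0.47, Arhgap29 at 0.52 and Ier2 at -0.53, all below the fold, and Dnm3os (0.89), Dusp1 (-1.21) and Jun (-1.05) at adjusted p-values of 0.0574, 0.0782 and 0.0512.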

How the results depend on the processing

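Genes called for the difference (higher, then lower, in KO) numbered 0 and 0 in limma, without a filter on low values, with TMM scaling, without a fold threshold and at a fold of 2. They numbered 1 and 1 at a pseudocount of 0.5, 7 and 5 at a pseudocount of 5, 0 and 3 at a signal of at least 50, 8 and 2 with the minimum asked of each genotype, 1 and 3 after quantile normalization, 6 and 4 in edgeR, 28 and 7 in DESeq2, 3 and 2 in limma-voom and 8 and 2 with robust empirical Bayes. Library weights gave 387 and 336, but the weights were estimated without convergence and gave WT control 2 a weight of 31.0, so these counts carry little. Leaving out 1 library gave 0 to 101 higher and 0 to 25 lower, with the highest counts without WT control 1. The GC and length correction gave 12 and 5, and 1 and 0 together with the replicate block. The replicate block alone gave 0 and 0. Of 18 pairs of libraries with the same number, 2 had deviations that correlated above 0.1. Of 12 libraries, 6 correlated best with their own number. Controls of the same number had similar GC correlations of their deviations (WT and KO 0.700 and 0.591, -0.180 and 0.00732, -0.700 and -0.557). Their mitochondrial shares of reads were also similar (0.687% and 0.674%, 0.892% and 0.816%, 1.19% and 1.13%). A batch shared by controls of the same number was not tested beyond the replicate block. The cause of the changes in the counts of called genes was not tested.

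Of 64 named genes, 50 kept their direction under every alternative that gave them a value (27, or 26 for Il3ra, Hspa1a and Car9), and the 14 that reversed had differences near 0. Quantile normalization reversed Hsph1 (0.00155), Hsp90aa1 (0.0897), Myc (0.00874), Igfbp4 (-0.109), Fn1 (0.128), Col1a1 (0.432), Yam1 (-0.0356), Hspg2 (0.00902) and Rmrp (-0.694). The GC and length correction, with or without the replicate block, reversed Hspa8 (-0.0573), Bag3 (0.0410), Myc (0.0650), Col1a1 (0.0399) and Hspg2 (0.0246). Library weights reversed Myc (0.0258), Ddit3 (0.0158), Igfbp4 (-0.0708), Fn1 (0.0429) and Yam1 (-0.116). Igfbp4 was also reversed at a pseudocount of 0.5 (-0.000571), with TMM (-0.0104), edgeR (-0.0277), DESeq2 (-0.0223) and limma-voom (-0.0351), Col1a2 with TMM (-0.00692), edgeR (-0.00425) and limma-voom (-0.00782), and Yam1 with edgeR (-0.00199). With 1 library left out the ranges were -0.205 to -0.0856 for Hsph1, -0.0401 to 0.116 for Hspa8, -0.125 to 0.0288 for Hsp90aa1, -0.126 to 0.0070 for Bag3, -0.0688 to 0.0329 for Myc, -0.100 to 0.0351 for Ddit3, -0.124 to 0.119 for Igfbp4, -0.0755 to 0.0261 for Fn1, -0.0876 to 0.0363 for Col1a1, -0.0482 to 0.0590 for Col1a2, -0.0374 to 0.107 for C3, -0.102 to 0.180 for Yam1, -0.131 to 0.0211 for Hspg2 and -0.0675 to 0.421 for Rmrp.

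The median standard error of the difference was 0.14 on the log2 scale with 3 libraries a group, and genes with few reads, such as Hspa1a in control libraries, are limited by depth.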
